A study of Mus musculus with 6 samples.

Results

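The FLRT, latrophilin and teneurin genes encode 3 families of cell surface proteins that bind one another across the synaptic cleft. All 10 mouse genes of these families, Flrt1 to Flrt3, Adgrl1 to Adgrl3 and Tenm1 to Tenm4, were taken by name from the 55401 genes counted, the families having been chosen with earlier results of these data known, and all 10 passed the filter on low counts. They were measured in bulk RNA of the dorsal hippocampus of wild-type mice, littermates of the Ts65Dn colony, in which an antisense oligonucleotide (ASO) against the long non-coding RNA Snhg11 had been injected. The 4-month-old mice received 50 µg of Snhg11-ASO, or of Control-ASO with the same nucleotides in scrambled order, in the dentate gyrus (DG) of each hemisphere, and the tissue was taken 3 days later. All 6 mice were therefore injected with an ASO, 3 with each, and no uninjected sample is part of the comparison. The ASO was delivered to the DG but the RNA came from the whole dorsal portion of the hippocampus, so cells outside the injected region contribute to every value. The comparison asks which genes differ in level when Snhg11 is lowered in the adult hippocampus.

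Latrophilins, encoded by the Adgrl genes, are adhesion G protein-coupled receptors that cleave themselves next to the membrane and sit mainly on neurons. FLRT proteins carry leucine-rich repeats and a fibronectin domain, bind latrophilins, and also bind the Unc5 netrin receptors. Teneurins are very large proteins with a single membrane pass, which bind latrophilins through their outer part and also bind other teneurins. In the hippocampus these contacts help incoming axons choose their target cells and the part of the dendrite on which they form synapses, and FLRT3 is a ligand found in the DG and CA3.

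The genes differ greatly in size and in what surrounds their starts. In GENCODE M21 on GRCm38 (mm10), Flrt1 spans 13.7 kb and Flrt3 20.6 kb, while Tenm2 spans 1229 kb, the longest of the 10. Adgrl3 and all 4 teneurin genes span over 500 kb. Genes on the opposite strand overlap exons of some members. The largest overlaps with a single gene were 12.9% of the exon bases of Adgrl1 (Gm10644), 8.91% of Adgrl3 (Gm16054) and 8.255% of Tenm1 (Sh2d1a). Gm44330 and Gm44450 overlap a further 1.67% and 1.08% of Adgrl1. No member shares exons with a gene on its own strand. To show the starts, promoter windows from RefSeq on GRCm38.p6, from 250 bases before to 50 bases after the start, were read, and 9 of the 10 genes had at least 1 window (12 windows in all). The 3 windows printed here, 1 for each family, have a transcription start within 10 bases of the GENCODE gene start. They are chr2:140671427-140671726 (minus strand) for Flrt3, whose start lies inside an intron of Macrod2, chr8:83899848-83900147 (plus strand) for Adgrl1, the gene with the highest level, and chr7:96170994-96171293 (plus strand) for Tenm4, one of the long genes that was lower after Snhg11-ASO. Capitals mark CG dinucleotides.
Flrt3: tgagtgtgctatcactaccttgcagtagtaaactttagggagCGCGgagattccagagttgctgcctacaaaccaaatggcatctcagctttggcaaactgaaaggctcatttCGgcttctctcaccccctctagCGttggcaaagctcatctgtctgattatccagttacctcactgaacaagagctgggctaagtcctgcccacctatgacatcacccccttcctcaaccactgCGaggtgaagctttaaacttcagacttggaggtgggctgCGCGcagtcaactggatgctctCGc
Adgrl1: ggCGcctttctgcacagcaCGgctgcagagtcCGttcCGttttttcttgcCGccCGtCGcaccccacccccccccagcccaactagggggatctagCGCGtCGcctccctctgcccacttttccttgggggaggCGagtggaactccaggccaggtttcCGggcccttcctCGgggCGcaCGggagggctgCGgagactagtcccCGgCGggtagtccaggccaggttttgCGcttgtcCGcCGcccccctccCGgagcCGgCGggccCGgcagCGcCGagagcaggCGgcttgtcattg
Tenm4: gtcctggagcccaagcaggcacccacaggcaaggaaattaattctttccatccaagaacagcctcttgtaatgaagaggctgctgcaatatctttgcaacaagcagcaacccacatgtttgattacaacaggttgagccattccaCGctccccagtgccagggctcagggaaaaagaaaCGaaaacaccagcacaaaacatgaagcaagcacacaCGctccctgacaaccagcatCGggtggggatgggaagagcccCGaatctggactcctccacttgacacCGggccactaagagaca
The Adgrl1 window held 28 CG dinucleotides, the Flrt3 window 8 and the Tenm4 window 6, against a median of 7 over 32851 promoter windows. At least 28 were found in 14.2% of all windows, at least 8 in 48.65% and at least 6 in 56.4%.

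The knockdown could be read in every sample. Snhg11 measured 551, 436 and 209 CPM (counts scaled to a common library size with TMM factors) in Control-ASO replicates 1, 2 and 3, and 139, 65.4 and 69.4 CPM in the 3 Snhg11-ASO replicates in that order. No sample of one group overlapped the other, and the log2 fold change was -2.13 (standard error 0.43). Its Benjamini-Hochberg adjusted p was 0.395 in the quasi-likelihood test of edgeR and 3.8e-05 in DESeq2. Between 28951250 and 43997537 read pairs fell on genes in each sample, of which 42689 to 48475 fell on the 10 genes. Snhg11-ASO replicate 1 stood apart from the other 5 samples, with Spearman correlations over genes of 0.955 to 0.96, against up to 0.991 between other samples. Neuron markers were present in every sample, at a summed 3786 to 4656 CPM over 5 genes, and no marker gene of any cell type tested had a count of 0 in any sample.

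Over the 10 genes, 9 had a lower mean after Snhg11-ASO and 1, Adgrl1, a higher one. The lowest were the long teneurins Tenm2, Tenm4 and Tenm3 together with Flrt1 and Adgrl2, at 61.2% to 66.7% of their Control-ASO means. In bulk RNA, fewer cells of a type and less RNA per cell cannot be told apart. The median log2 fold change of the 10 was -0.49, against 0.01 over the 19969 genes tested. In single samples, the median of the 10 genes on the log2 scale relative to the Control-ASO mean was 0.04, -0.19 and 0.05 in Control-ASO replicates 1, 2 and 3, and -0.44, -0.44 and -0.55 in Snhg11-ASO replicates 1, 2 and 3.

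None of the 10 passed the threshold of 0.05 in the quasi-likelihood test of edgeR, where their Benjamini-Hochberg adjusted p ranged from 0.442 to 0.846. That test called 0 of all 19969 genes (0%), with 1619 (8.11%) at an unadjusted p under 0.05. Of the 10 genes, 5 were lower at an unadjusted p under 0.05 (Flrt1, Adgrl2, Tenm2, Tenm3 and Tenm4) and 0 higher, against 4.43% of all genes lower and 3.68% higher. For 4 of the 10 every Snhg11-ASO sample lay below every Control-ASO sample, against 7.7% of all genes tested (15.4% in either direction). Adgrl3 and the 4 teneurins span at least 500 kb. Of the 223 genes tested in that class, 50.2% were lower at an unadjusted p under 0.05 and 51.1% were lower without overlap. Of the 5 members in it, Tenm2, Tenm3 and Tenm4 met the first criterion, and only Tenm2 and Tenm3 the second. DESeq2 called 40 of those 223 genes lower, Tenm2 among them, and 1 higher. DESeq2 called 251 genes in all (1.35% of those with an adjusted p) and 2 of the 10, Flrt1 with an adjusted p of 0.0196 and Tenm2 with 0.0285, while 0.802% of all genes were called lower and 0.549% higher. Without Snhg11-ASO replicate 1, DESeq2 called 4 of the 10: Flrt1 (adjusted p 0.00566), Adgrl2 (0.00606), Tenm3 (0.00968) and Tenm2 (0.0158). That fit called 346 genes in all, 2.18% of those with an adjusted p, and 1.47% lower. Without Snhg11-ASO replicate 2 or 3 it called 0 of the 10.

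**Figure D1:**
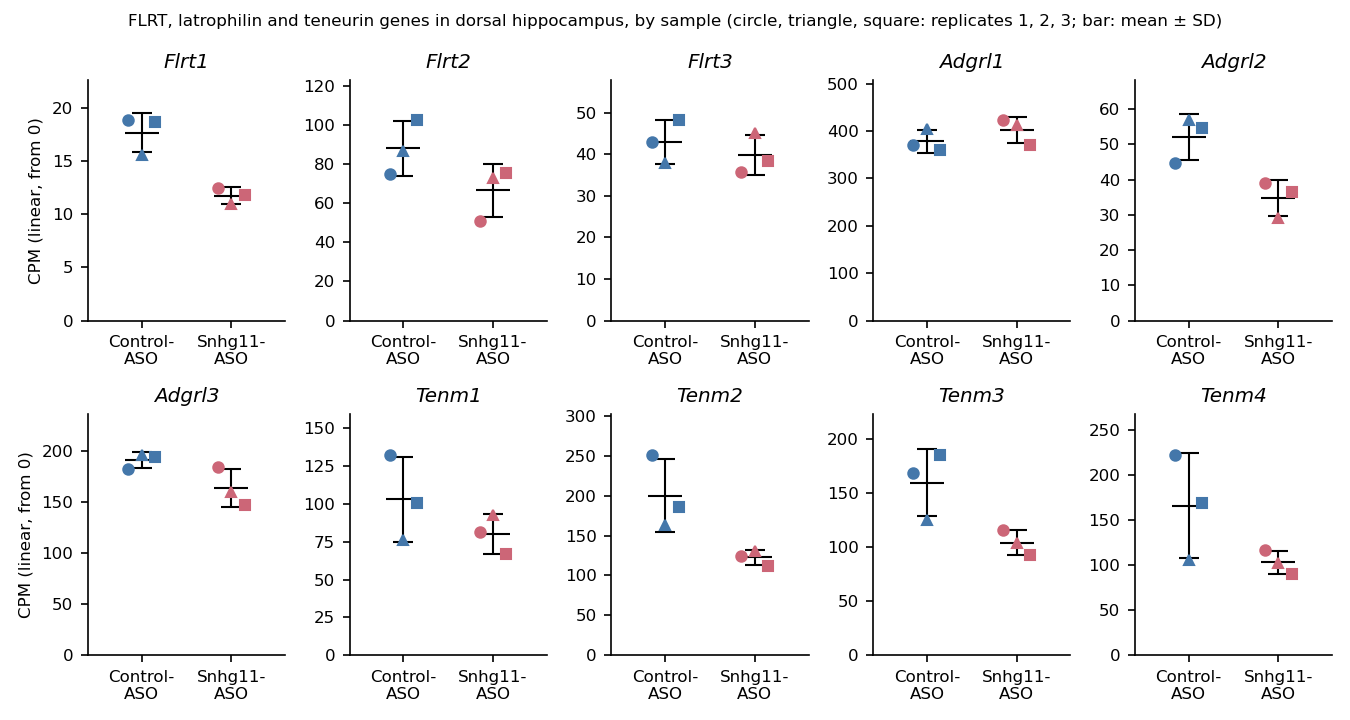
Level of each of the 10 genes in CPM (vertical axis, linear from 0) in Control-ASO (blue) and Snhg11-ASO (red) samples, with circle, triangle and square for replicates 1, 2 and 3 and bars for the mean ± SD. In the plots of Flrt1, Adgrl2, Tenm2 and Tenm3 the red points all lie below the blue points, while in the other 6 plots the groups overlap.

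The ligands of the FLRT family differed in how far apart the groups lay. Flrt1 (ENSMUSG00000047787, chromosome 19, 7092001 to 7105729, minus strand), the least abundant of the 3 per kb of exon, measured 18.9, 15.5 and 18.7 CPM in Control-ASO replicates 1, 2 and 3, and 12.5, 10.98 and 11.8 CPM in Snhg11-ASO replicates 1, 2 and 3. All 3 knockdown samples lay below all 3 control samples, and the mean went from 17.7 ± 1.86 (SD, n = 3) to 11.8 ± 0.764 (SD, n = 3) CPM, 66.5% of the control mean. The log2 fold change was -0.59 (standard error 0.13, 95% interval -0.90 to -0.27), with an unadjusted p of 0.00312 (edgeR quasi-likelihood test, Benjamini-Hochberg adjusted p 0.442). The gene lies inside Macrod1, which is read from the opposite strand and measured 4.52, 5.17 and 4.84 CPM in the control samples and 3.04, 4.38 and 3.69 CPM in the knockdown samples.

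Flrt2 (ENSMUSG00000047414, chromosome 12, 95692226 to 95785215, plus strand) measured 74.99, 86.6 and 103 CPM in Control-ASO replicates 1, 2 and 3, and 51.0, 73.2 and 75.6 CPM in knockdown replicates 1, 2 and 3. The highest knockdown sample lay just above the lowest control sample, so the groups overlapped (two-sided exact permutation test, p = 0.2), while each knockdown sample was lower than the control sample of the same number. Its log2 fold change was -0.40 (standard error 0.18, 95% interval -0.83 to 0.03). With the replicate number as a block it was -0.41, with an unadjusted p of 0.00784 against 0.0633 without the block (edgeR quasi-likelihood test, Benjamini-Hochberg adjusted p 0.484 and 0.637). No label states that the numbers pair the mice, and the pairing was assumed from correlations in these same counts. In the same test, the block gave Flrt1, Adgrl2, Tenm2 and Tenm3 a larger unadjusted p and Tenm4 a smaller one. Flrt3 measured 42.8, 37.8 and 48.2 CPM in the control samples and 35.7, 45.03 and 38.4 CPM in the knockdown samples, and here the groups were interleaved. Its log2 fold change of -0.11 (standard error 0.13) had a 95% interval of -0.43 to 0.21, so a decrease as large as that fitted for Flrt2 lies inside the interval. The 3 FLRT genes summed to 21.7, 21.6 and 26.4 CPM per kb of exon in the control samples and 16.1, 20.6 and 19.7 in the knockdown samples. The sums did not overlap (p = 0.1 in a two-sided exact permutation test, where 3 samples against 3 cannot give a smaller one), and the knockdown mean was 80.9% of the control mean. The share of each gene in that sum overlapped between the groups.

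Among the latrophilins, only Adgrl2 was separated between the groups. Adgrl1 (ENSMUSG00000013033, chromosome 8, 83900105 to 83941954, plus strand), which is by far the most abundant of the receptors per kb of exon, measured 370, 405 and 360 CPM in Control-ASO replicates 1, 2 and 3, and 423, 412 and 371 CPM in knockdown replicates 1, 2 and 3. The groups overlapped, and the log2 fold change of 0.09 (standard error 0.10) had a 95% interval of -0.14 to 0.32. Adgrl2 (ENSMUSG00000028184, chromosome 3, 148815583 to 148990555, minus strand) measured 44.8, 56.9 and 54.6 CPM in the control samples and 38.9, 29.0 and 36.3 CPM in the knockdown samples. No value of one group fell among those of the other, and the mean went from 52.1 ± 6.42 to 34.7 ± 5.15 CPM (SD, n = 3 each), or 66.7% of the control mean. Its log2 fold change was -0.58 (standard error 0.15, 95% interval -0.94 to -0.23), with an unadjusted p of 0.00571 (edgeR quasi-likelihood test, Benjamini-Hochberg adjusted p 0.483).

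Adgrl3 (ENSMUSG00000037605, chromosome 5, 81020138 to 81825133, plus strand) measured 182, 197 and 195 CPM in Control-ASO replicates 1, 2 and 3, and 184, 160 and 147 CPM in Snhg11-ASO replicates 1, 2 and 3. Snhg11-ASO replicate 1 lay among the control samples and the other 2 lay below them, and the log2 fold change was -0.22 (standard error 0.11, 95% interval -0.47 to 0.03). Without Snhg11-ASO replicate 1 it was -0.32 with an unadjusted p of 0.00671 (edgeR quasi-likelihood test, Benjamini-Hochberg adjusted p 0.345). That was the lowest value with 1 sample left out. The highest was -0.15, without Snhg11-ASO replicate 3, where the unadjusted p was 0.215 in the same test.

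The summed level of the 3 latrophilins was close to equal in the groups, while the share of each gene in it did not overlap between them. They summed to 58.5 ± 3.27 CPM per kb of exon in Control-ASO and 58.5 ± 4.23 in Snhg11-ASO (SD, n = 3 each, two-sided exact permutation test, p = 1). Adgrl1 made up 76.2%, 75.8% and 73.9% of that sum in Control-ASO replicates 1, 2 and 3, and 79.0%, 81.3% and 79.9% in Snhg11-ASO replicates 1, 2 and 3. Every knockdown sample had a higher share of Adgrl1 than every control sample (two-sided exact permutation test, p = 0.1). The shares of Adgrl2, 5.59%, 6.43% and 6.77% against 4.39%, 3.45% and 4.74%, and of Adgrl3, 18.2%, 17.8% and 19.3% against 16.6%, 15.3% and 15.3%, were lower in every knockdown sample (p = 0.1 for each in the same exact permutation test). The 3 shares add up to 100% in each sample, so they are not independent of one another. Among single genes tested, 15.4% had groups that did not overlap in either direction. Adgrl1 spans 41.85 kb, Adgrl2 175 kb and Adgrl3 805 kb. When the trend of log counts with genomic span was removed from every sample, their log2 fold changes were 0.05, -0.50 and 0.06. The shares were not computed after that correction.

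**Figure D2:**
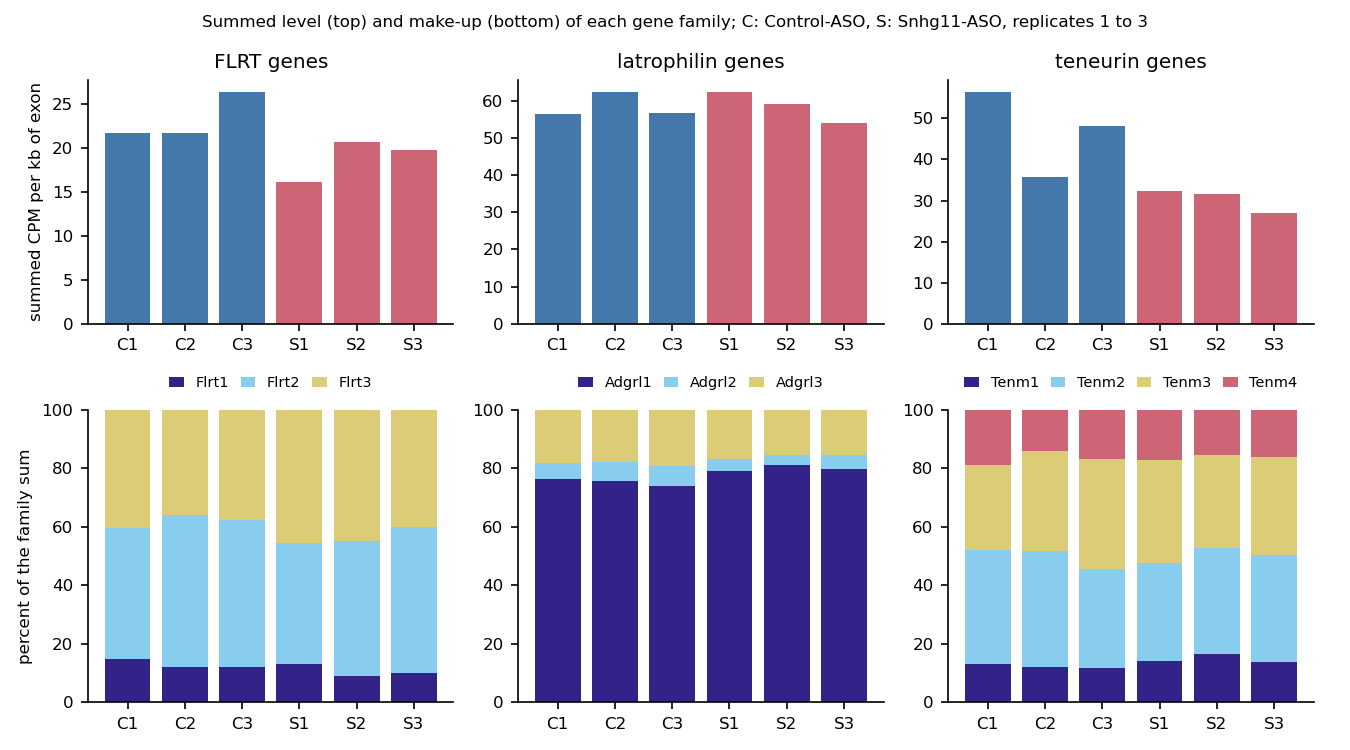
Summed level of each family in CPM per kb of exon (top, linear from 0) and the percent of that sum from each gene (bottom) in Control-ASO (C) and Snhg11-ASO (S) replicates 1 to 3. Teneurin sums were 26.9 to 32.3 in the knockdown samples and 35.8 to 56.5 in the controls, while the latrophilin sums overlapped and Adgrl1 took a larger share of them in each knockdown sample.

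The teneurins had the lowest median of the 3 families, at a log2 fold change of -0.65, against -0.40 for the FLRT genes and -0.22 for the latrophilins. All 4 teneurin genes span over 500 kb, and the 223 genes tested in that class had a median of -0.37. With the trend of log counts with span removed, Tenm1 to Tenm4 were at -0.05, -0.34, -0.37 and -0.40. Flrt1 to Flrt3 were then at -0.65, -0.38 and -0.17, and Adgrl1 to Adgrl3 at 0.05, -0.50 and 0.06. Whether the families differ from each other was not tested. Tenm2 (ENSMUSG00000049336, chromosome 11, 36006656 to 37235964, minus strand) measured 252, 163 and 186 CPM in Control-ASO replicates 1, 2 and 3, and 125, 131 and 112 CPM in Snhg11-ASO replicates 1, 2 and 3. All 3 knockdown samples lay below all 3 controls, and the control samples were spread more widely, at 200.5 ± 46.0 CPM, than the knockdown samples, at 123 ± 9.71 CPM (SD, n = 3 each). The log2 fold change of Tenm2 was -0.71 (standard error 0.17, 95% interval -1.11 to -0.31), with an unadjusted p of 0.00392 (edgeR quasi-likelihood test, Benjamini-Hochberg adjusted p 0.460).

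Tenm3 (ENSMUSG00000031561, chromosome 8, 48227682 to 48843951, minus strand), known for matching CA1 neurons to their targets in the subiculum, measured 169, 125 and 186 CPM in the control samples and 116, 104 and 92.8 CPM in the knockdown samples. The groups again did not overlap, the knockdown mean was 65.1% of the control mean, and the log2 fold change was -0.62 (standard error 0.16, edgeR quasi-likelihood test, Benjamini-Hochberg adjusted p 0.492). Tenm4 (ENSMUSG00000048078, chromosome 7, 96171246 to 96911093, plus strand) measured 223, 106 and 169 CPM in Control-ASO replicates 1, 2 and 3, and 116, 102 and 90.5 CPM in Snhg11-ASO replicates 1, 2 and 3. Control-ASO replicate 2 lay below Snhg11-ASO replicate 1, so the groups overlapped, and the log2 fold change of -0.69 (standard error 0.26) ranged from -0.93 without Control-ASO replicate 2 to -0.43 without Control-ASO replicate 1, where the unadjusted p was 0.0998. Tenm1, the X-linked member (ENSMUSG00000016150, chromosome X, 42527866 to 43429126, minus strand), measured 133, 76.4 and 100 CPM in the control samples and 81.2, 92.7 and 66.6 CPM in the knockdown samples. These values were interleaved, and the log2 fold change of -0.36 (standard error 0.22) had a 95% interval of -0.87 to 0.14 and ranged from -0.54 without Control-ASO replicate 2 to -0.15 without Control-ASO replicate 1. Xist was at or below 0.184 CPM and the Y-linked gene Ddx3y was at 62.5 to 94.7 CPM in all 6 samples, the pattern of male tissue.

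The 4 teneurins summed to 56.5, 35.8 and 48.1 CPM per kb of exon in the control samples and 32.3, 31.6 and 26.9 in the knockdown samples. The sums did not overlap (two-sided exact permutation test, p = 0.1), and the knockdown mean was 64.7% of the control mean. Control-ASO replicate 2 was the lowest of the controls for all 4 teneurins, and it was the highest for Adgrl1, Adgrl2 and Adgrl3. Tenm1 made up 12.3% ± 0.783 of the teneurin sum in Control-ASO and 14.9% ± 1.42 in Snhg11-ASO (SD, n = 3 each), with no overlap, whereas the shares of Tenm2, Tenm3 and Tenm4 overlapped.

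**Figure D3:**
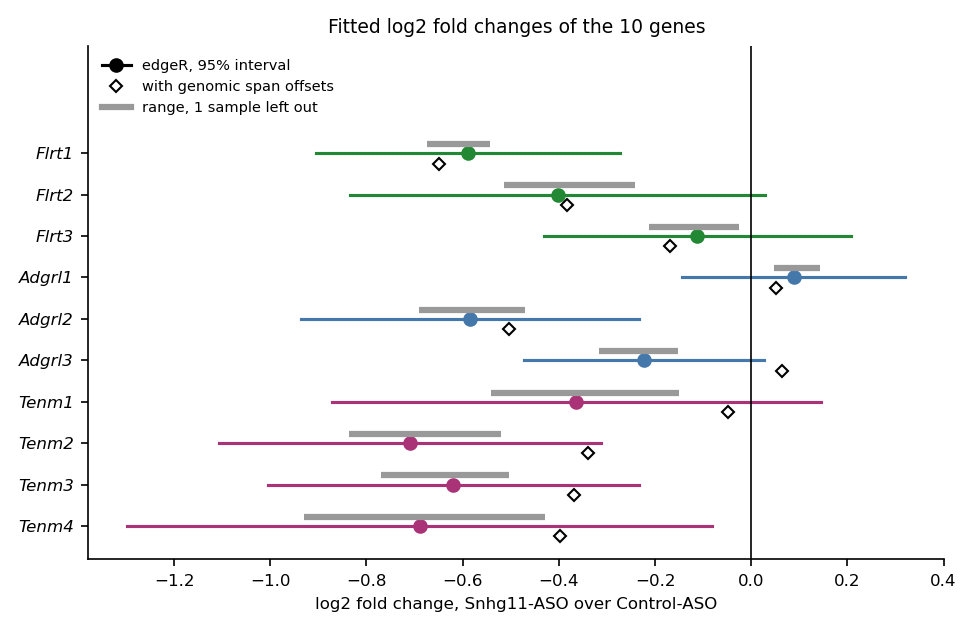
Fitted log2 fold change of Snhg11-ASO over Control-ASO for each gene (horizontal axis) with its 95% interval from edgeR, the range when 1 sample is left out (grey), and the value after a correction for genomic span (diamonds). The intervals of Flrt1, Adgrl2, Tenm2, Tenm3 and Tenm4 lie below 0, and the diamonds lie closer to 0 than the circles for all genes but Flrt1 and Flrt3.

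Because longer transcripts collect more reads, levels were compared between genes per kb of exon. The length used was that of all annotated exons of a gene merged, not of 1 transcript. It was 17.75 kb over 35 transcripts for Adgrl3 and 5.87 kb over 1 transcript for Flrt1. The order and the family shares therefore depend on the annotation. In Control-ASO the order was Adgrl1 (44.0 CPM per kb), Tenm2 (17.5), Tenm3 (15.6), Flrt2 (11.4), Adgrl3 (10.8), Flrt3 (8.82), Tenm4 (7.89), Tenm1 (5.81), Adgrl2 (3.67) and Flrt1 (3.01). Neighbours in this order had ranges that did not overlap only for Adgrl1 and Tenm2, for Adgrl3 and Flrt3, and for Tenm1 and Adgrl2. In Snhg11-ASO, Adgrl1 was again first, at 46.8 CPM per kb, and the next 5 genes, Tenm2, Tenm3, Adgrl3, Flrt2 and Flrt3, lay between 10.7 and 8.16 with each overlapping the next. Flrt1 was last in both groups, at 2.003 CPM per kb in Snhg11-ASO.

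Genes of 500 kb and over tended to be lower after Snhg11-ASO. Of the 223 genes tested that span at least 500 kb, 90.1% had a negative log2 fold change, with a median of -0.37, and 50.2% were lower at an unadjusted p under 0.05. Among the 15163 genes spanning under 50 kb the median was 0.02 and 3.1% were lower at that p. Of the 5 genes of the 3 families in the longest class, Tenm2, Tenm3 and Tenm4 lay below its median, Tenm1 at -0.36 was near it, and Adgrl3 at -0.22 lay above it. When the trend of log counts with span was removed from every sample (span offsets), Tenm2, Tenm3 and Tenm4 were at -0.34, -0.37 and -0.40, Tenm1 at -0.05, and Adgrl3 turned to 0.06. Flrt1, which is short, was at -0.65 after the correction, and Adgrl2, with a span of 175 kb, at -0.50. The median of the 10 genes was then -0.35. The part of span in these differences was not tested.

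**Figure D4:**
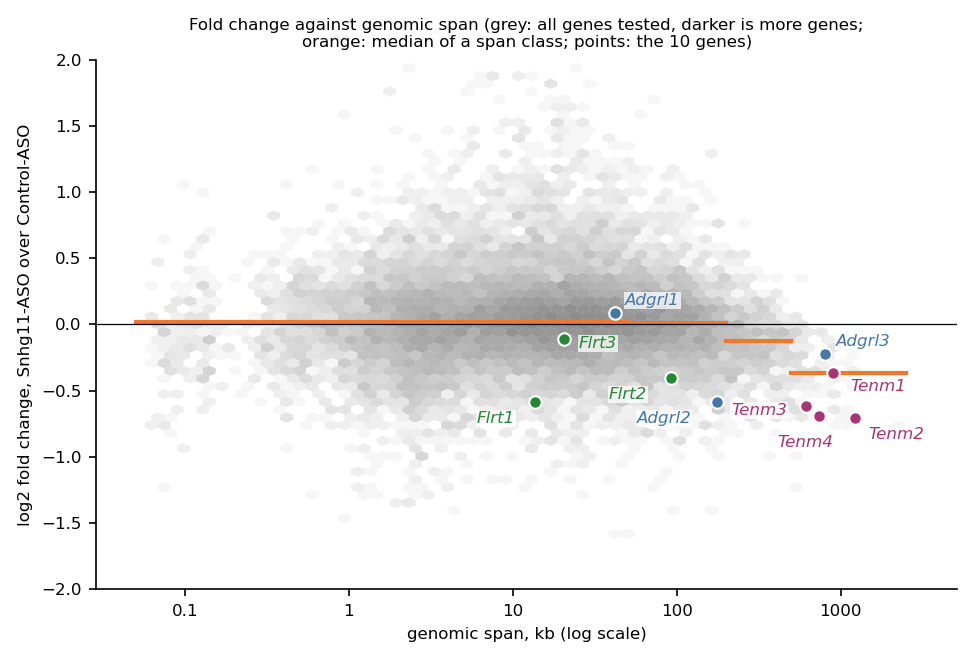
Log2 fold change of Snhg11-ASO over Control-ASO (vertical axis) against genomic span in kb (horizontal log axis) for the 19945 genes tested that have a span (grey), of which 131 lie beyond the plotted limit of 2 in either direction. Orange lines give the median of each span class, at 0.02, 0.01, -0.13 and -0.37 from the shortest to the longest, and Tenm2, Tenm3 and Tenm4 lie below the last of these lines.

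Flrt3 (ENSMUSG00000051379, chromosome 2, 140650914 to 140671469, minus strand) lies within intron 3 of Macrod2-202, which runs from 140452687 to 140825051, and is read from the strand opposite to Macrod2. The counts keep the strands apart, so the transcripts could be read separately. Macrod2 was lower in every knockdown sample, at 28.6, 30.5 and 26.2 CPM against 54.6, 47.4 and 49.0 CPM, while Flrt3 on its own strand overlapped between the groups. Read pairs on Flrt3 exons from the strand of Macrod2 made up 11.1% to 18.5% of all pairs on those exons, compared with 2.06% to 6.72% for Flrt1 and up to 1.46% for the other 8 genes. They amounted to 9.72, 5.74 and 6.59 CPM in Control-ASO replicates 1, 2 and 3, and 4.7995, 6.10 and 4.79 CPM in Snhg11-ASO replicates 1, 2 and 3. Snhg11-ASO replicate 2 lay within the control range, and the groups overlapped (two-sided exact permutation test, p = 0.2). Which transcript these pairs come from was not tested.

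**Figure D5:**
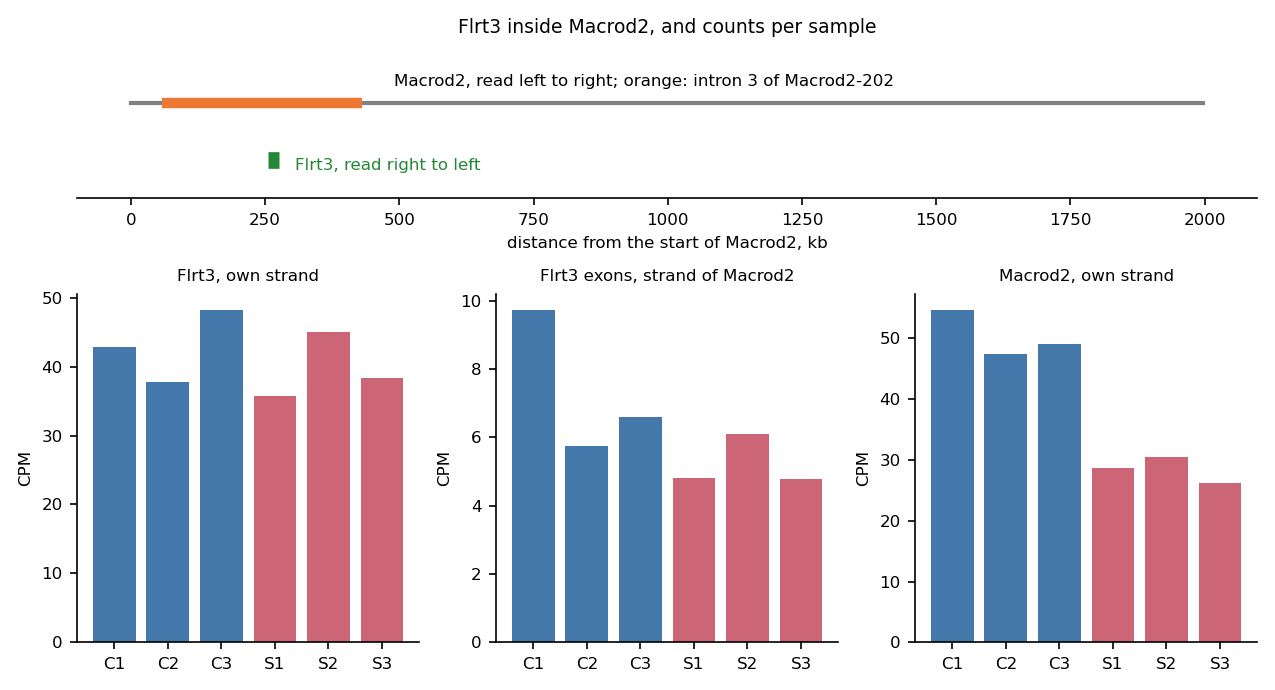
Map of Flrt3 inside Macrod2 (distance from the start of Macrod2 in kb, with intron 3 in orange), and CPM per sample (linear from 0) of Flrt3 on its own strand, of pairs on Flrt3 exons from the Macrod2 strand, and of Macrod2, in Control-ASO (C, blue) and Snhg11-ASO (S, red) replicates 1 to 3. The groups overlap in the first and second bar plots and do not overlap for Macrod2.

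Genes annotated inside introns of the 10 genes on the same strand were read as well. Of 12 such genes 7 were tested, and they lie inside Flrt2, Adgrl3, Tenm3 and Tenm4 only. Counts were low for Gm45772, Gm32842 and Mir708, with 4 to 24 pairs in each sample. Of the 7 tested genes 5 had a negative log2 fold change, with a range of -0.65 to 0.39 and a median of -0.05. None was at an unadjusted p under 0.05 in edgeR's test. The groups did not overlap for 1 of the 7, a share near the 15.4% of all genes tested that did not overlap in either direction. It was Gm48015, a transcript model inside Flrt2, named after its values were seen, at 3.81, 4.16 and 5.08 CPM in the control samples and 1.91, 3.49 and 3.71 CPM in the knockdown samples.

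A list of 12 other surface proteins was read beside these families, and not all of them, such as Adgrl4, are known to bind them. Of the 12, 7 had a negative log2 fold change and 5 a positive one, with a median of -0.05. In this list 4 genes were lower at an unadjusted p under 0.05 and 0 were higher, against 4.43% and 3.68% of all genes tested. All 4 had groups that did not overlap, against 7.7% of all genes tested that were lower without overlap. Unc5d, a receptor of FLRT proteins, measured 60.4, 34.3 and 45.4 CPM in Control-ASO replicates 1, 2 and 3, and 28.3, 33.3 and 24.7 CPM in Snhg11-ASO replicates 1, 2 and 3. It had a log2 fold change of -0.70 with a standard error of 0.22 (edgeR quasi-likelihood test, Benjamini-Hochberg adjusted p 0.533), and each knockdown sample lay below each control sample. Its relative Unc5b had groups that did not overlap in the other direction, at 16.4, 19.8 and 11.99 CPM against 20.7, 20.8 and 20.3 CPM, with a log2 fold change of 0.36 and an unadjusted p of 0.0944.

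Nrxn3, a presynaptic neurexin, and Cntn6, a contactin that can bind a latrophilin, were also among the lower genes. Nrxn3 measured 278, 328 and 237 CPM in the control samples and 192, 186 and 142 CPM in the knockdown samples, with a log2 fold change of -0.70 (standard error 0.16) and a Benjamini-Hochberg adjusted p of 0.0277 in DESeq2 and 0.452 in edgeR. Cntn6 had a log2 fold change of -0.70 at an unadjusted p of 0.0275 in edgeR. Unc5a, Unc5c, Robo1, Dag1 and Adgrl4 lay between -0.07 and 0.13, and their groups overlapped, as did those of Nrxn2 and of Fgfr1, at -0.26 and 0.54.

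Of 8 intracellular partners, 4 had a negative and 4 a positive log2 fold change, with a median of -0.02 and 0 lower at an unadjusted p under 0.05. Gna13, a G protein subunit, was higher in all 3 knockdown samples, at 156, 102 and 118 CPM against 80.0, 97.3 and 93.6 CPM, with a log2 fold change of 0.47 (unadjusted p 0.0276, adjusted p 0.564 in edgeR). The scaffolds Shank1, Shank2 and Shank3, which bind latrophilins inside the cell, lay at -0.08, -0.04 and 0.06.

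Among other synaptic adhesion genes, the 10 neurexin, neuroligin and LRRTM genes had a median of -0.18, with 7 negative and 2 lower at an unadjusted p under 0.05. All 13 contactin and Cntnap genes had a negative log2 fold change, with a median of -0.50 and 8 lower at that p. Over all genes tested 48.3% were negative and 4.43% were lower at that p. Among genes of at least 500 kb these shares were 90.1% and 50.2%. The neurexin and contactin lists share members with the surface partners, and no test compared them with the 10 genes.

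Markers of other cell types were read beside these values. The interneuron markers summed to 419 to 465 CPM in Control-ASO and 349 to 397 CPM in Snhg11-ASO, with no overlap. All 7 of 7 genes were lower in mean, 2 of them at an unadjusted p under 0.05 in edgeR. Among single genes tested, 15.4% had groups that did not overlap in either direction. The oligodendrocyte precursor markers, 2 genes, summed to 72.5 to 85.4 CPM in Control-ASO and 59.8 to 71.5 CPM in Snhg11-ASO. The general neuron, granule cell, CA1, CA2, CA3, thalamic, astrocyte, oligodendrocyte, microglia and endothelial markers overlapped between the groups. Choroid plexus markers varied most, at 1882, 35.9 and 1219 CPM in Control-ASO replicates 1, 2 and 3. They were at 1287, 121 and 65.6 CPM in knockdown replicates 1, 2 and 3. Control-ASO replicate 2, the lowest control for the teneurins, was also the lowest for choroid plexus, thalamic and oligodendrocyte precursor markers. It was the highest control for granule cell, CA1, CA2, CA3, astrocyte, oligodendrocyte and microglia markers. The part of these cell types in the differences above was not tested.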

How the data were processed

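Bulk RNA-seq was analysed in 6 samples of dorsal hippocampus, 3 Control-ASO and 3 Snhg11-ASO, from 3 mice a group according to the methods of the study. Libraries were made from ribo-depleted total RNA with a stranded kit and sequenced as paired reads of 50 bases. The authors aligned reads to GRCm38 (mm10) with STAR 2.5.2a and deposited raw counts of read pairs per gene and strand, with no normalization or pooling. The methods name Rsubread for counting, while the files have the layout that STAR writes. Pairs that map to several places or to exons of more than 1 gene are left out. Summary lines held 43.5% to 51.4% of pairs and were not used. The methods state that 1 Snhg11-ASO sample was removed as an outlier without naming it, and all 6 were kept here.

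Counts of the reverse strand, which the kit predicts, were used, and held 96.2% to 96.8% of strand-resolved pairs. GENCODE M21 gave names and positions for 55141 of 55401 identifiers. Genes were filtered with filterByExpr (minimum count 10), scaled with TMM factors and tested with edgeR 4.0.16 (quasi-likelihood test, Benjamini-Hochberg adjustment, R 4.3.3), with a common biological coefficient of variation of 0.266. Standard errors are the log2 fold change over the square root of F. Genes named are the 10 members, their partners with the lowest p or without overlap (all were counted, and some are not reported here), Snhg11 and Macrod2, and further genes were named after their values were seen. The members and lists were chosen with earlier results of these data known.

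Replicate numbers run from 1 to 3 in both groups. Samples with number 1, 2 and 3 deviated together from the means of their groups (correlations 0.297, 0.179 and 0.103), and the numbers were taken to pair samples on these values alone, although Control-ASO replicate 2 correlated slightly more with Snhg11-ASO replicate 3 (0.188). Alternatives were DESeq2 1.42.0, other scaling factors, counts of both strands, other filters, the replicate block, genomic span offsets and leaving out samples.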

Additional observations from a re-analysis of the deposited data

How the results depend on the processing

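The result that 9 of the 10 genes were lower kept its direction under all 18 alternatives except for Adgrl3, which turned to 0.064 with genomic span offsets and to 0.063 with these and the replicate block. The median of the 10 ranged from -0.53 to -0.34, with -0.35 for the span offsets and -0.34 for the span offsets with the block, and from -0.53 to -0.45 with 1 sample left out. Between 4 and 6 genes were lower at an unadjusted p under 0.05. In edgeR 0 of the 10 were called with any sample left out, and 2 genes in all were called without Snhg11-ASO replicate 1 and 0 otherwise. DESeq2 called 251 genes, 2 of them among the 10, and without Snhg11-ASO replicates 1, 2 and 3 it called 346, 268 and 216, with 4, 0 and 0 of the 10. Groups without overlap were seen for 7 of the 10 without Control-ASO replicate 2, 6 lower and Adgrl1 higher (13.7% and 13.2% of all genes), for 4 to 7 over all samples left out, and for 3, all lower, with the span offsets (8.33%). Snhg11 passed in DESeq2 at -2.13 with all samples, and at -2.56, -1.94 and -1.97 without Snhg11-ASO replicates 1, 2 and 3, and ranged from -2.56 to -1.83 in edgeR with 1 sample left out. Replicate numbers as a block pair samples that no label pairs. With that block 6 of the 10 were lower at an unadjusted p under 0.05, Flrt2 being added, and it changed no call. Each of the 10 genes was counted by at least 459 pairs in each sample, and 3 samples a group limit the precision.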
